A study of Mus musculus with 27 samples.

Results

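Hepatic stellate cells (HSCs) were compared between 24 h and 72 h after a single toxic injury of the mouse liver, by bulk RNA sequencing of sorted cells. Both groups were taken by their labels, which gave 7 of the 27 samples of the series: 3 acute 24 h samples and 4 acute 72 h samples. Of 53379 genes, the 18758 that passed a filter on low counts were tested, and no measured value entered the choice of samples. Male Balb/c mice aged 10–12 weeks received carbon tetrachloride (CCl4) once, intraperitoneally, at 0.5 µL per gram body weight in mineral oil, and their HSCs were sequenced directly after sorting, without culture. Healthy mice of the same age without injection (n = 4) and mice 7 d after the same single injection (n = 4) served as reference. A second pair of groups, chronic 24 h and chronic 72 h (n = 4 each), came from mice that were 8–10 weeks old at the start and had been given 8 injections of the same dose over 4 weeks. Cells were sorted by their positivity under ultraviolet light, a property of stored retinoid. According to the methods of the study, each repeat was an individual experiment.

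HSCs are the pericytes of the liver sinusoids and the main vitamin A store of the body. CCl4 is turned into a radical by cytochrome P450 enzymes of the hepatocytes around the central vein and kills them, and HSCs near the dead cells leave quiescence. Activated HSCs divide, contract, secrete cytokines and lay down collagen, and after a single injury the liver later clears this matrix again.

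The deposited counts summed to 11.8–12.3 M per acute 24 h sample and to 11.2–12.6 M per acute 72 h sample, and 22699–25176 and 19816–24954 genes had at least 1 count. Levels are given as CPM, each gene's count relative to the TMM-scaled total of its sample, and compare samples, not genes of different length. Pearson correlations of log2 CPM across genes were 0.953–0.960 within 24 h, 0.914–0.951 within 72 h and 0.848–0.916 between the groups. The 72 h samples fell into pairs: the nuclear RNA Malat1 stood at 10300 and 9080 CPM in replicates 1 and 2 and at 5030 and 4940 CPM in replicates 3 and 4, against 10900–13900 CPM at 24 h. Neat1, another nuclear RNA, stood at 1390, 974, 505 and 469 CPM in the same order. No label marks these pairs as a batch, so each leading count below was also taken with only one pair of 72 h samples.

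At 72 h, 2110 of 18758 genes tested were higher than at 24 h (11.2% of those tested) and 705 were lower (3.76%). A gene is called here where edgeR's quasi-likelihood test, fitted to all 27 samples, gave a Benjamini-Hochberg adjusted p under 0.05 and the change exceeded 2-fold, and every adjusted p below comes from this test. Of the called genes, 75% were higher. Samples of both groups did not overlap for 1975 of the genes called higher and 669 of those called lower, while 6724 of all genes tested (35.8%) had no overlap. The direction went with the level: the median log2 change was 0.40 among genes with a mean log2 CPM below 0 and −0.15 among those above 8. Of the genes called higher, 174 had no count in any 24 h sample. With 72 h replicates 1 and 2 alone, 1221 genes were higher and 426 lower, and with replicates 3 and 4 alone 1208 were lower.

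The sorted cells carried the defining HSC markers in every sample. Lrat, the enzyme that esterifies retinol for storage, stood at 1070–1300 CPM at 24 h and 1500–2160 CPM at 72 h, with no call (log2 change 0.64 ± 0.34 SE, edgeR adjusted p = 0.189). Reln (874–1100 and 820–1210 CPM), Pdgfrb (780–1080 and 763–983 CPM) and Des (861–1040 and 518–819 CPM) were likewise present throughout and not called. For Des, every 72 h sample lay below every 24 h sample, and for Lrat every 72 h sample lay above. The summed level of 12 HSC markers was 21900–34400 CPM at 24 h and 16700–20800 CPM at 72 h. A sum weighs the most abundant markers most, and the mean log2 CPM of the same markers overlapped, at 9.84–9.97 and 9.72–10.03. Their median log2 change was −0.12. Of these 12, 2 were called higher and 2 lower.

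Markers of several other liver cells were higher at 72 h. Hepatocyte markers summed to 105–436 CPM at 24 h and 1600–3970 CPM at 72 h, against 839–6210 CPM in healthy samples, and 11 of 14 were called higher. Alb, serum albumin, stood at 1.96, 12.8 and 78.5 CPM at 24 h and at 285, 279, 841 and 362 CPM at 72 h. All 72 h samples lay above all 24 h samples for Alb (log2 change 3.83 ± 0.97 SE, edgeR adjusted p = 0.00573, and 5.91 without 24 h replicate 3). Ttr, transthyretin, gave 3.66 ± 0.80, 4.67 without 24 h replicate 3 and 3.05 without 72 h replicate 3. Macrophage markers summed to 132–198 CPM and then 281–540 CPM, against 129–480 CPM in healthy samples, and 4 of 11 were higher. Of 8 markers of monocyte-derived macrophages 4 were higher, although their sums of 209–299 and 270–331 CPM overlapped (125–226 CPM in healthy samples). Csf1r, the receptor that macrophages need for survival, rose from 5.88–10.7 to 24.4–56.4 CPM, and Adgre1, which encodes F4/80, from 0.356–0.702 to 3.46–5.58 CPM. Healthy samples held 21–67.1 CPM of Csf1r and 0.39–3.55 CPM of Adgre1. Cd68, the other defining macrophage marker, overlapped between groups, at 10.5–14.2 and 13.7–34.1 CPM. The Kupffer cell marker Clec4f, at 33.9–42.5 and 24.4–99.1 CPM, overlapped between groups. B cell markers summed to 4.34–4.9 and 26.6–54.2 CPM, against 13.7–72.9 CPM in healthy samples. Portal fibroblast markers summed to 60.3–111 and 157–376 CPM, against 99.3–136 CPM in healthy samples. Of the portal fibroblast markers 3 of 8 were higher, and the defining Thy1, Entpd2 and Cd34 were above 0 in every sample. Sinusoidal endothelial markers summed to 214–268 and 69.3–209 CPM, against 211–627 CPM in healthy samples. Of 12, 2 were lower and 1 higher, with a median log2 change of −0.10. The defining Stab2, Clec4g and Pecam1 overlapped between groups, whereas Cdh5, also defining, did not, at 5.56–9.79 and 1.22–5.23 CPM. Markers of bile duct cells summed to 7.9–12.2 and 7.79–15.7 CPM, with overlap and none of 6 called. Among them Krt19 was at 0–0.347 CPM at 24 h and had no count in any 72 h sample. Epcam stood at 0.174–0.445 and 0–0.797 CPM. In bulk samples, fewer cells of a type and less RNA per cell cannot be told apart, and the part of these cells in the results below was not tested unless a value is given.

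**Figure D1:**
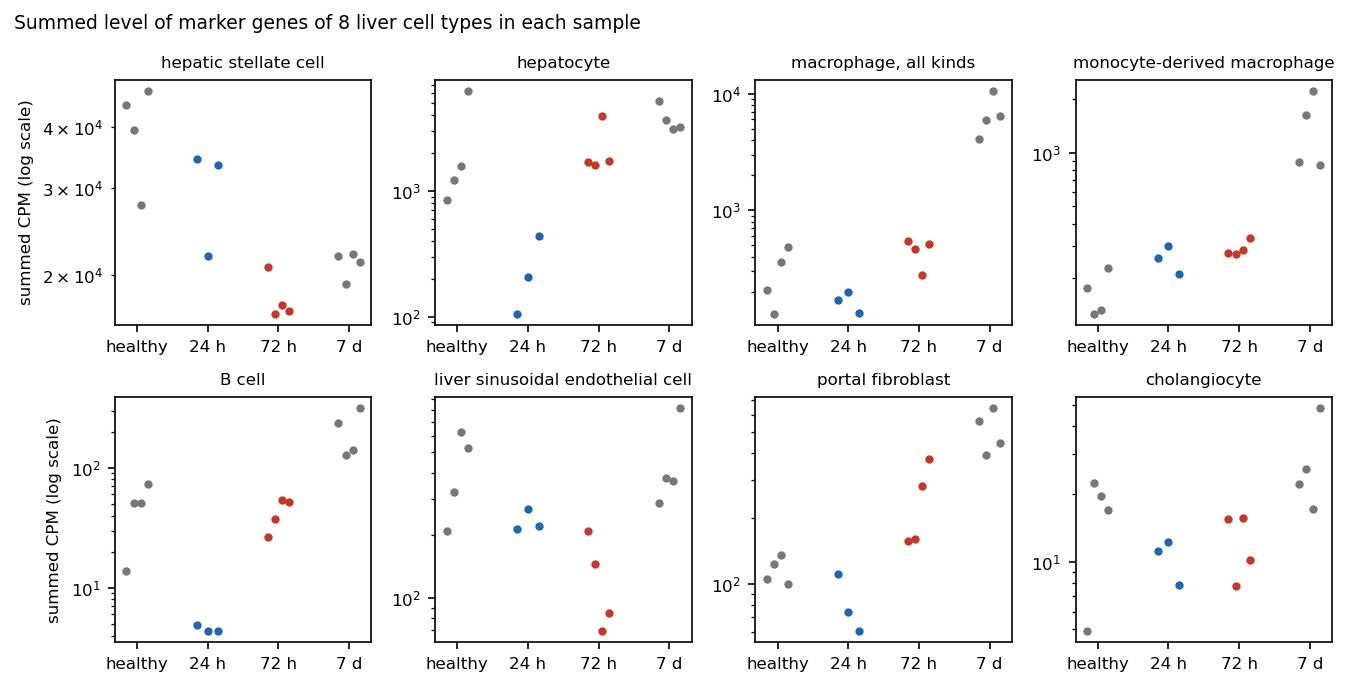
Summed CPM (log scale) of the marker genes of 8 liver cell types in each healthy, acute 24 h, acute 72 h and acute 7 d sample, 1 point per sample. Hepatocyte markers stand at 105–436 CPM at 24 h and 1600–3970 CPM at 72 h, while HSC markers stand at 16700–20800 CPM in the 72 h samples.

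Among 26 lists of genes by function, mitosis stood furthest to the higher side and ribosome biogenesis furthest to the lower side. The median log2 change was 4.73 for mitosis, 1.76 for DNA replication, 1.45 for collagens and 1.22 for clock genes, against 0.07 for all genes tested. At the other end it was −0.89 for ribosome biogenesis, −0.55 for contractile and cytoskeletal genes, −0.50 for immediate early genes and −0.47 for cytosolic ribosomal proteins. Each count of called members below is to be read against the 11.2% of all genes that were called higher and the 3.76% called lower. Those shares depended on level. Called lower were 1.09% of genes with a mean log2 CPM below 0, 6.87% of those from 6 to 8 and 11.1% of those above 8. Called higher were 19.2% of genes from 0 to 2 and 5.72% of those above 8. Counts of lower genes in lists at high level, such as the immediate early genes, therefore have a larger share beside them than 3.76%.

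**Figure D2:**
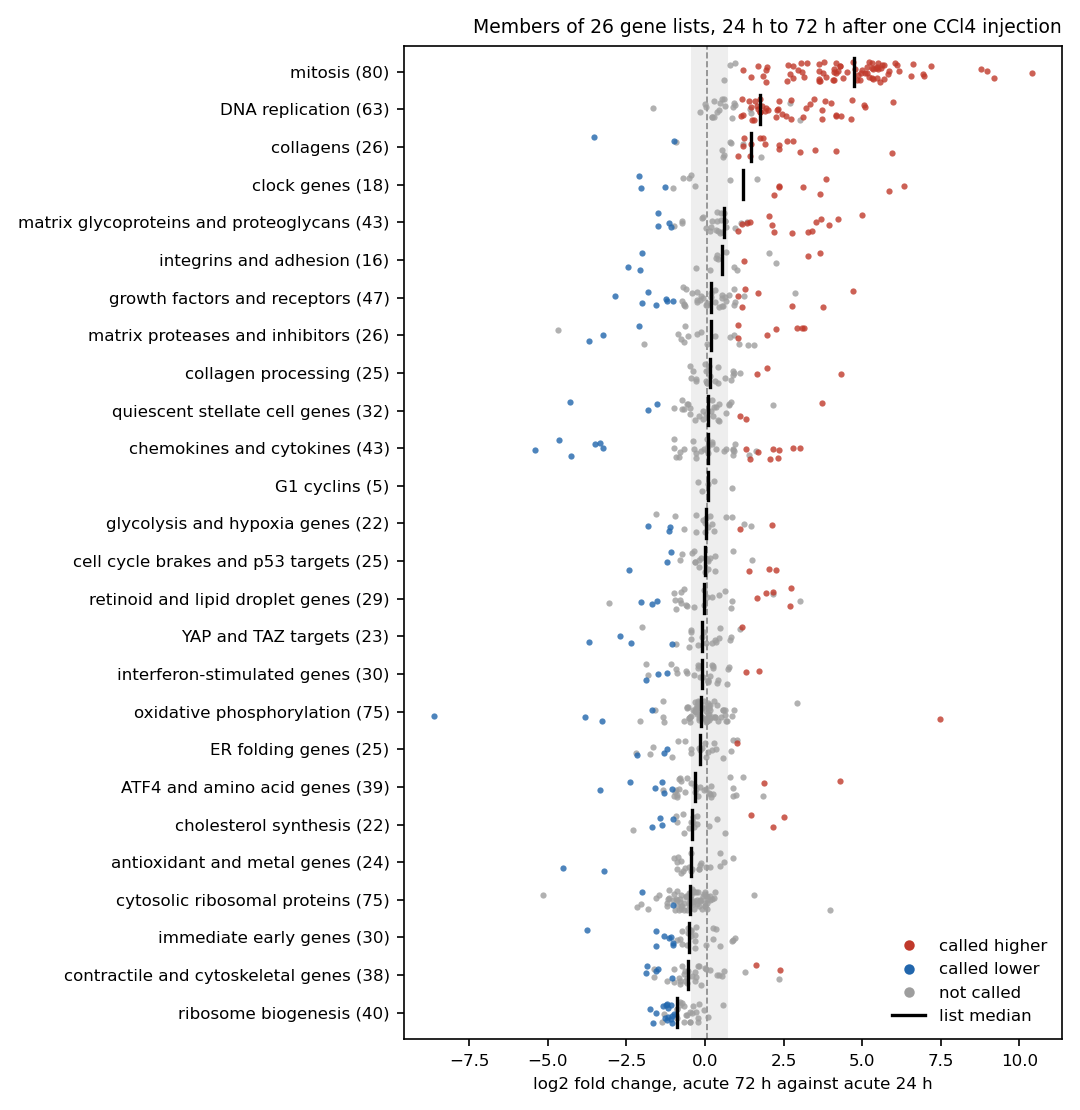
Log2 fold change of every tested member of 26 gene lists, acute 72 h against acute 24 h, with red points for genes called higher, blue for lower and grey for not called, and a black bar at each list's median. The dashed line and the shaded band give the median and interquartile range of all genes tested, and genes with no count in a group are drawn at their fitted values. The mitosis points lie almost wholly to the right, with 77 of 80 called higher.

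The cell division genes gave the largest median change of the 26 lists. Of 80 mitosis genes tested, 77 were higher and none lower, and samples of both groups did not overlap for 79. The list's mean log2 CPM was 1.12, 0.32 and 0.06 at 24 h and 4.19, 4.15, 5.03 and 5.10 at 72 h, against 0.73–1.74 in healthy samples and 1.65–3.54 after 7 d. The 72 h samples thus stood above every other acute or healthy sample. The count was 73–78 on leaving out each sample in turn, 69 with 72 h replicates 1 and 2 alone and 77 with replicates 3 and 4 alone. By role, all 25 spindle and cytokinesis genes and all 21 checkpoint, centromere and kinetochore genes were higher (median log2 changes 5.15 and 5.01), and so were 20 of 21 cyclins, kinases and regulators and 11 of 13 chromosome structure genes. With the 4 members that had no count in a group set to their lower bound, the list's median was 4.51.

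Mki67, the proliferation antigen that coats mitotic chromosomes (chromosome 7, 135689784–135716361, minus strand, GRCm38), stood at 7.3, 1.82 and 3.25 CPM at 24 h and at 159, 129, 178 and 206 CPM at 72 h. Every 72 h sample exceeded every 24 h sample by far, with a log2 change of 5.34 ± 0.78 (SE, edgeR adjusted p = 2.78e-05). Healthy samples held 15.9 ± 10.4 CPM (SD, n = 4) and 7 d samples 44.7 ± 24.1 CPM. Top2a, the topoisomerase that untangles sister chromatids, went from 0.712, 0.868 and 0.0878 CPM to 26.1, 32.6, 47.5 and 59.4 CPM (6.19 ± 0.71, edgeR adjusted p = 1.49e-06). Ccnb1 and Ccnb2, the mitotic cyclins, changed by 5.49 ± 0.86 and 5.83 ± 0.97, with 20.8–73.4 and 37–63.4 CPM at 72 h. Their partner kinase Cdk1 was already present at 24 h, at 10.9, 7.55 and 3.25 CPM, and reached 38.7, 44.2, 42 and 52.8 CPM (2.62 ± 0.35, edgeR adjusted p = 7.87e-06). Ckap2l, a spindle protein, changed by 5.63 ± 0.59 to 49.4–101 CPM. Acute 24 h replicate 1 held the highest level of most of these genes among the 24 h samples. Without it the log2 change was 6.04 for Mki67, 6.81 for Ccnb1 and 6.69 for Ckap2l.

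For genes with no count at all at 24 h, only a bound can be given, against 3 counts in each 24 h sample (0.264 CPM on average). Kif20a, a kinesin of the cleavage furrow, stood at 21.9, 13.7, 18.7 and 9.99 CPM at 72 h, at least 60.9-fold higher. The checkpoint kinase Bub1 stood at 2.42–10.3 CPM and the phosphatase Cdc25c, which activates Cdk1, at 3.12–11.5 CPM, at least 22.7-fold and 26.1-fold higher. These bounds limit counting error only.

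DNA replication genes were higher as well. Of 63 tested, 41 were higher and none lower (39–42 on leaving out each sample), with 14 of 16 chromatin and repair genes, 10 of 16 licensing and helicase genes, 6 of 7 genes of nucleotide supply, all 6 S-phase cyclins and E2F factors, and 5 of 18 polymerases and fork factors. The list's mean log2 CPM was 2.11–2.42 at 24 h and 4.06–4.39 at 72 h, with healthy samples at 1.96–2.28. Mcm5, a subunit of the replicative helicase, stood at 4.45, 2 and 3.6 CPM and then at 31.6, 39.7, 23.2 and 22.2 CPM (3.12 ± 0.40, edgeR adjusted p = 5.3e-06). Here 72 h replicates 1 and 2 were the highest, whereas for Mki67 and Top2a replicates 3 and 4 were. Tk1, the salvage kinase for thymidine, changed by 5.05 ± 0.49 to 55.5–75.5 CPM. Pclaf, which binds the replication clamp, changed by 6.37 ± 0.63 to 34.6–73.5 CPM. E2f8, a repressing E2F factor, and Brca1, of homologous recombination, reached 8.41–16.6 and 6.84–14 CPM from under 1 CPM (5.97 ± 1.18 and 5.10 ± 1.11). Without 24 h replicate 1 the changes were 7.08 for Pclaf, 6.89 for E2f8 and 6.72 for Brca1.

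Promoter sequences of genes from these lists are shown because mitosis and replication genes are known to carry different elements there. The stretches run from 150 bases to 1 base before the RefSeq start (GRCm38.p6), read on the gene's strand. Capitals mark CCAAT boxes (CCAAT, or ATTGG for the other strand), the cell cycle homology region (CHR, TTTGAA) and, in Mcm5, an E2F site (TTTGGCGC, read here on the other strand). They lie at chr10:69352913-69353062 (Cdk1, minus), chr9:70421555-70421704 (Ccnb2, minus) and chr8:75109359-75109508 (Mcm5, plus).
Cdk1: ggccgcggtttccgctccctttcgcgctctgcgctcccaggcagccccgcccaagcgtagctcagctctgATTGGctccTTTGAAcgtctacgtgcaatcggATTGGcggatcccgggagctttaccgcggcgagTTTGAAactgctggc
Ccnb2: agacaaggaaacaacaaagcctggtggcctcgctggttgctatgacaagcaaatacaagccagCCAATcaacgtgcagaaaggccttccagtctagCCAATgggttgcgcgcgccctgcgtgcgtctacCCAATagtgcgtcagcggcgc
Mcm5: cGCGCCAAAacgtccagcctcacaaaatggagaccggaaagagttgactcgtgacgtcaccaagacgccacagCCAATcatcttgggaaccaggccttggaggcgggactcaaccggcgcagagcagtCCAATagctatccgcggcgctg

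Cdk1 holds its CHR letters at bases −71 and −15 and Ccnb2 holds 3 CCAAT boxes, at −87, −54 and −21, with CHR letters outside the stretch shown, at −167 and at base 5 after the start. Windows of 300 bases (250 before and 50 after the start) were searched on both strands for 65 of the 80 mitosis genes and 50 of the 64 replication genes. A gene was counted if any of its windows held the letters. CHR letters were found for 64.6% of the mitosis genes and 18% of the replication genes, against 20.2% of all 27025 genes with a window and 14.8% of the 11687 of them that were tested. The E2F letters searched (TTTCCCGC or TTTGGCGC) were found for 7.69% and 36%, against 1.8% of all genes with a window and 3.21% of those tested. CCAAT was found for 73.8% and 60%, against 41.1% and 42.2%. These matches describe letters in a window, not bound sites.

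The brakes of the cell cycle did not share one direction. Of 25 inhibitors and p53 targets, 3 were higher, 3 lower (1 with 72 h replicates 1 and 2 alone) and 19 not called. Cdkn2c, an inhibitor of the G1 kinases, went from 15.8–20.9 to 55–119 CPM (2.26 ± 0.28), Sesn1 from 11.8–12.5 to 24.8–41.4 CPM (1.41 ± 0.22) and Pmaip1, which encodes the death protein Noxa, from 0.79–2.17 to 6.18–7.43 CPM (2.03 ± 0.46). Bax, another death protein, fell from 58.7–87.1 to 25.4–35.5 CPM (−1.22 ± 0.23) and the kinase gene Plk3 from 139–162 to 56.7–90.7 CPM (−1.07 ± 0.29). Cdkn1a, which encodes p21, stood at 41.1, 346 and 33.9 CPM at 24 h and at 35.7, 43.7, 2.76 and 23.7 CPM at 72 h. Its groups overlapped and its call (−2.41 ± 0.74, edgeR adjusted p = 0.0205) rested on 24 h replicate 2, without which the change was −0.50 (edgeR adjusted p = 0.691). None of 5 G1 cyclins and kinases was called. Ccnd1, cyclin D1, stood at 16.7–23.4 and 24.6–46.2 CPM (0.87 ± 0.29), just inside 2-fold, and passed at 1.02 only without 24 h replicate 3.

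Part of the immediate early genes fell. Of 30 immediate early genes, 8 were lower and none higher, and the list's mean log2 CPM was 9.17, 9.46 and 9.19 at 24 h and 8.87, 8.98, 8.53 and 8.57 at 72 h. The count was 5 without 24 h replicate 2 or without 72 h replicate 4, and 3 with 72 h replicates 1 and 2 alone. Fosl1, a late partner of the AP-1 dimer, stood at 111, 87.2 and 90.1 CPM at 24 h and at 7.26, 13.7, 3.5 and 3.72 CPM at 72 h. The groups were far apart (−3.77 ± 0.64, edgeR adjusted p = 0.000149), and healthy samples held 1.69 ± 1.2 CPM (SD, n = 4). Dusp5, a nuclear phosphatase that feeds back on ERK, fell from 478–585 to 111–255 CPM (−1.57 ± 0.30). Fosl2 fell from 212–281 to 48.4–132 CPM (−1.56 ± 0.51, edgeR adjusted p = 0.0272), with 72 h replicate 3 nearest to the 24 h samples. That call was lost on leaving out 24 h replicate 2 (−1.61) or 3 (−1.43), or 72 h replicate 1 (−1.52), 2 (−1.50) or 4 (−1.44). Atf3 stood at 205, 524 and 412 CPM and then at 719, 837, 602 and 658 CPM, without a call (0.89 ± 0.47). Myc, at 171–510 and 207–343 CPM, and Klf6, at 324–579 and 359–389 CPM, overlapped between groups.

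Cytokine genes moved both ways. Of 43 tested, 9 were higher and 6 lower, with a median of 0.11 and with 10 lower on leaving out 72 h replicate 2. Il11, a cytokine that acts on fibroblasts themselves (chromosome 7, 4772373–4782859), stood at 132, 131 and 128 CPM at 24 h and at 3.01, 5.45, 1.95 and 1.94 CPM at 72 h. It was nearly absent from healthy samples (0.233 ± 0.277 CPM, SD, n = 4), and the log2 change of the step was −5.40 ± 0.51 (edgeR adjusted p = 1.25e-07). The eosinophil attractant Ccl11 fell from 73.4, 74 and 51.7 CPM to 2.3, 4.68, 2.68 and 4.26 CPM (−4.25 ± 0.51). Tnfrsf12a, the receptor for the TNF-like ligand TWEAK, fell from 370–396 to 17.9–90.8 CPM (−3.23 ± 0.53, and −3.98 without 72 h replicate 2). Ccl4, a chemokine of myeloid and lymphoid cells, rose from 2.23, 2.26 and 1.14 CPM to 15.5, 15.2, 10.3 and 20.4 CPM (3.03 ± 0.51). Tnf rose from 1.23–3.91 to 12–24.3 CPM (2.80 ± 0.79, edgeR adjusted p = 0.012), a call lost without 24 h replicate 3 (2.46). Beside these stand the macrophage markers, whose sum was 132–198 CPM at 24 h and 281–540 CPM at 72 h, and their part in these changes was not tested. Il6, at 2.76–6.51 and 3.19–7.4 CPM, and Ccl2, at 32.6, 308 and 334 CPM and then 629, 98.8, 484 and 546 CPM, showed no call, with samples of both groups mixed.

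Of 23 targets of the mechanosensitive factors YAP and TAZ, 4 were lower and 1 higher (0–2 with samples left out), with a median of −0.10. Ankrd1, a stretch-responsive muscle protein, stood at 120, 51 and 96 CPM and then at 3.28, 14.2, 4.31 and 5.81 CPM (−3.69 ± 0.71, and −4.31 without 72 h replicate 2). F3, tissue factor, fell from 87.8–141 to 7.88–25.4 CPM (−2.69 ± 0.37), and Nt5e, the ectoenzyme that makes adenosine, from 496–689 to 97.9–147 CPM (−2.36 ± 0.26). Amotl2, which restrains YAP, rose from 156–203 to 264–517 CPM (1.19 ± 0.30), a call lost at 0.98 without 72 h replicate 3 and at 0.97 without replicate 4.

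Metallothionein genes fell. Mt1, a metal-binding protein, stood at 3890, 2440 and 1730 CPM at 24 h and at 238, 393, 248 and 270 CPM at 72 h (−3.22 ± 0.37, edgeR adjusted p = 1.44e-06). Its neighbour Mt2 stood at 1780, 923 and 805 CPM and then at 44.2, 107, 46.8 and 6.58 CPM (−4.51 ± 1.07, edgeR adjusted p = 0.00324, and −5.17 without 72 h replicate 2). Replicate 4 was the lowest 72 h sample for Mt2 but not for Mt1. The promoter of Mt2 (chr8:94172468-94172617, plus strand, GRCm38.p6) is shown for its metal response elements, with matches to TGCNCNC on either strand and an AP-1 site (TGANTCA) in capitals.
Mt2: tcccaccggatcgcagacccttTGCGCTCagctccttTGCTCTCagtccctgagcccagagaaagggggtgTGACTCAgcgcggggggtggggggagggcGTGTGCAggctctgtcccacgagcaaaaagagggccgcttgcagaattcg

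In the stretch shown, the metal response letters stand at bases −128, −113 and −50 and the AP-1 letters at −79. Further metal response letters lie outside it, at −223 and −178 and at base 5 after the start. TGCNCNC is common, found for 53.6% of all genes with a window and 63.2% of those tested, and TGANTCA was found for 8.97% and 6.61%. Among 24 antioxidant and metal genes only Mt1 and Mt2 were called (3 were lower without any 1 sample other than 24 h replicate 1), and the 17 targets of NRF2 had a median of −0.44 with none called. Hmox1, heme oxygenase 1, stood at 102–178 and 49.3–89.1 CPM without overlap (−0.99 ± 0.31), just short of 2-fold. It passed without 24 h replicate 3 (−1.16) or without 72 h replicate 1 (−1.02), 2 (−1.13) or 4 (−1.01).

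Genes of ribosome biogenesis were lower at 72 h. Of this list, 15 of 40 genes were lower and none higher, and its mean log2 CPM was 5.21, 5.05 and 5.32 at 24 h and 4.52, 4.65, 4.08 and 4.15 at 72 h. Healthy samples stood at 4.04–4.16. The pairs of 72 h samples differed here, as 3 genes were lower with replicates 1 and 2 alone and 20 with replicates 3 and 4 alone, beside the Malat1 levels given above, whose part was not tested. Ppan, a processing factor of the large subunit, fell from 58.7–86.2 to 20–31.5 CPM (−1.57 ± 0.24). Of 75 cytosolic ribosomal proteins, 2 were lower (9 without 72 h replicate 2, 1 without 24 h replicate 1 or 72 h replicate 3, 8 with 72 h replicates 3 and 4 alone), Rpl10a among them, from 58.2–60.8 to 7.53–19 CPM (−2.01 ± 0.49). The mean log2 CPM of the ribosomal protein list was 4.18–4.39 at 24 h, 3.54–3.93 at 72 h and 2.58–3.21 in healthy samples. How reads that also match similar sequences, such as pseudogenes, were counted is not given. Their part in these levels was not tested. Of 75 respiratory subunits, 4 were lower (2 without 24 h replicate 3 or without 72 h replicate 1, 2 or 3) and 1 higher (0 without 24 h replicate 1 or 3 or without 72 h replicate 3 or 4), and with 72 h replicates 3 and 4 alone 1 was lower.

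Among 39 ATF4 and amino acid genes, 6 were lower and 2 higher (1 higher without 24 h replicate 2 or 72 h replicate 4, and 0 or 5 higher with 72 h replicates 1 and 2 or 3 and 4 alone). Ddit4, an inhibitor of the growth kinase mTORC1, fell from 215, 199 and 142 CPM to 39.3, 41.3, 29 and 31.3 CPM (−2.39 ± 0.28, edgeR adjusted p = 1.77e-06). The arginine carrier Slc7a1 fell from 106–111 to 16.7–53 CPM (−1.60 ± 0.29). Of 25 folding genes of the endoplasmic reticulum, 3 were lower and 1 higher, a split that ranged from 1 to 5 lower and 0 to 3 higher on leaving out each sample in turn. Ern1, a sensor of unfolded proteins, fell from 22.5–32.9 to 8.67–12.8 CPM (−1.29 ± 0.30). Among 22 cholesterol genes, 4 were lower and 3 higher. Hsd17b7, of the later synthesis steps, fell from 28.6–37.1 to 10.8–14.6 CPM (−1.36 ± 0.33), and Dhcr7, of the last steps, rose from 6.59–13.7 to 18.2–38.6 CPM (1.45 ± 0.28).

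Glycolysis and hypoxia genes gave 3 lower and 2 higher of 22 (5 lower without 72 h replicate 1, 1 higher without 24 h replicate 3, 1 lower with 72 h replicates 1 and 2 alone). Slc2a1, the main glucose carrier of dividing cells, fell from 241, 194 and 227 CPM to 61.1, 69.1, 56.5 and 62.4 CPM (−1.82 ± 0.16, edgeR adjusted p = 5.45e-08). Aldoa, aldolase, fell from 762–903 to 239–536 CPM (−1.12 ± 0.24). Hk2, the inducible hexokinase, rose from 7.92, 5.56 and 7.11 CPM to 24.6, 32, 35.2 and 29 CPM (2.14 ± 0.25). No group overlapped with the other for these 3 genes. Of 30 interferon-stimulated genes, 3 were lower and 2 higher (1 higher without any one 24 h sample or without 72 h replicate 3 or 4, or with 72 h replicates 1 and 2 alone). Bst2, tetherin, fell from 252–312 to 74.7–83.7 CPM (−1.89 ± 0.36), and the ubiquitin-like Isg15 and its protease Usp18 fell by 1.20 ± 0.23 and 1.49 ± 0.29 on the log2 scale. Irf1, a factor induced by interferon gamma, rose from 163–318 to 756–838 CPM (1.73 ± 0.29).

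Collagen genes were higher at 72 h. Of 26 tested, 16 were higher and 2 lower (14–16 higher and 1–3 lower on leaving out each sample, 15 and 14 higher with either pair of 72 h samples), with 8 of 9 fibrillar genes higher (median 1.92). The list's mean log2 CPM was 5.14, 4.67 and 5.10 at 24 h, 6.37, 6.15, 6.47 and 6.60 at 72 h, and 6.60–7.18 after 7 d, with healthy samples at 4.94–5.68. Portal fibroblast markers stood at 60.3–111 CPM at 24 h and 157–376 CPM at 72 h, and their part in the matrix genes was not tested. Col1a1, the main chain of type I collagen (chromosome 11, 94936224–94953042), stood at 616, 528 and 551 CPM at 24 h and at 2350, 2260, 5090 and 5950 CPM at 72 h. The 72 h samples lay in their 2 pairs, all above the 24 h samples (2.79 ± 0.40, edgeR adjusted p = 2.36e-05), and 7 d samples reached 9360 ± 3360 CPM (SD, n = 4). Col3a1 followed, from 1520–2730 to 7280–18800 CPM (2.62 ± 0.29). Col4a5, a chain of basement membrane collagen, changed from 0.623, 0 and 0.351 CPM to 13.1, 15.5, 28.9 and 24.8 CPM (5.94 ± 0.83). Col11a1 rose to 2.77–6.35 CPM (4.16 ± 0.92) and Col8a2 from 1.67–2.69 to 10.8–39.6 CPM (3.50 ± 0.41). Without 24 h replicate 1 the changes were 6.79 for Col4a5 and 6.32 for Col11a1. Col13a1, a transmembrane collagen, fell from 8.25–8.95 to 0–1.32 CPM (−3.54 ± 0.64). Col4a1, the common basement membrane chain, fell from 2620–4120 to 1580–1960 CPM (−1.0 ± 0.26), a call lost without 24 h replicate 1 (−0.93) or 3 (−0.88).

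**Figure D3:**
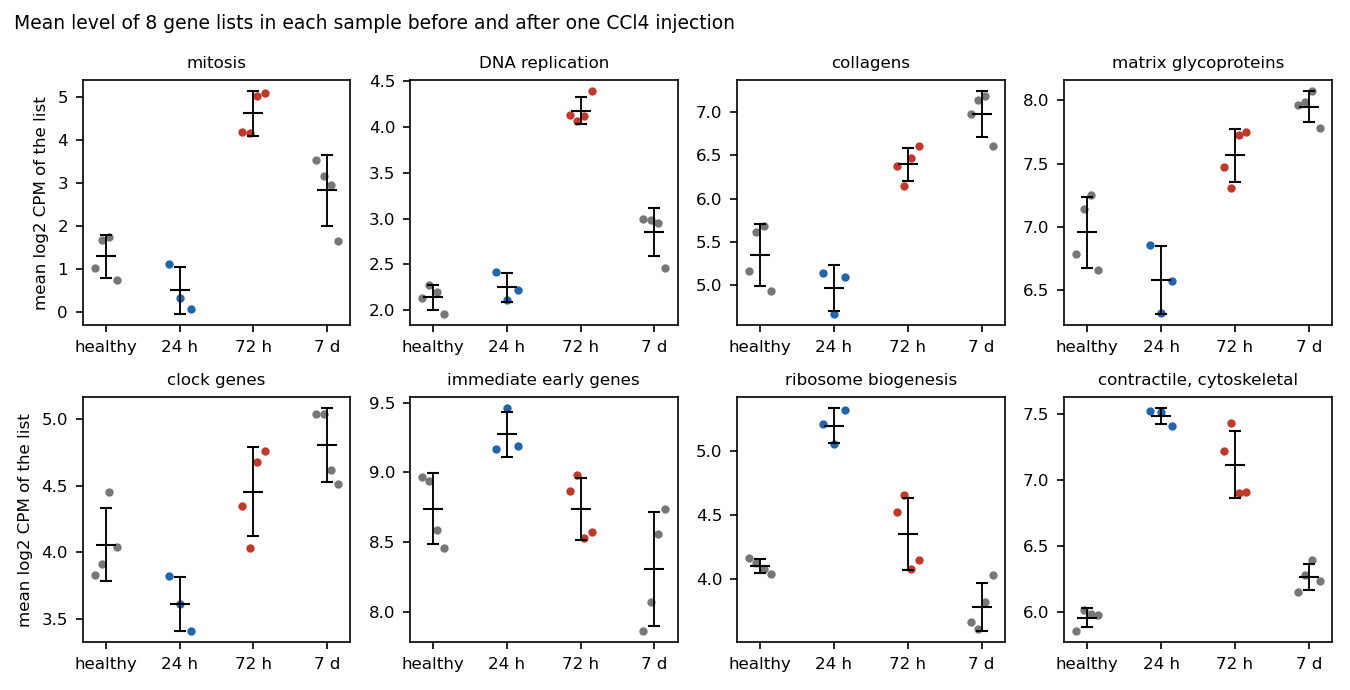
Mean log2 CPM of the tested members of 8 gene lists in each healthy, acute 24 h, acute 72 h and acute 7 d sample, with points for samples and bars for the mean ± SD. Mitosis moves from 0.06–1.12 at 24 h to 4.15–5.10 at 72 h, collagens from 4.67–5.14 to 6.15–6.60, and ribosome biogenesis from 5.05–5.32 to 4.08–4.65.

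Of 25 genes for enzymes that finish collagen, 3 were higher (1 without 24 h replicate 2, and 1 with 72 h replicates 1 and 2 alone) and none lower. Lox, which cross-links collagen and elastin, stood at 176, 68.6 and 120 CPM and then at 200, 227, 574 and 517 CPM (1.64 ± 0.47, edgeR adjusted p = 0.0131). It did not overlap, but its call was lost without 24 h replicate 2 (1.36) or 72 h replicate 3 (1.29). P4ha3, a prolyl hydroxylase subunit, rose from 0–0.801 to 3.55–11.5 CPM (4.32 ± 1.09, and 5.67 without 24 h replicate 1).

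Among 43 matrix glycoproteins and proteoglycans, 15 were higher and 4 lower (2 lower without 24 h replicate 1), and 7 of the 15 elastic fibre genes were higher. Fbln5, which organises elastic fibres, stood at 20.2, 20.7 and 57.1 CPM and then at 442, 383, 800 and 831 CPM (4.23 ± 0.48, and 4.91 without 24 h replicate 3). Ltbp2, of the same fibres, rose from 1.65–5.96 to 47.9–175 CPM (5.01 ± 0.61, and 5.61 without 24 h replicate 1), and Fbln2 from 2.26–5.07 to 26.1–75.9 CPM (3.95 ± 0.59). Thbs1, thrombospondin 1, went the other way, from 2160, 1320 and 2710 CPM to 494, 899, 818 and 744 CPM (−1.48 ± 0.33). The large proteoglycan gene Vcan fell from 33.2–67.2 to 18.5–24.8 CPM (−1.16 ± 0.36), a call lost at −0.86 without 24 h replicate 1. Ecm1, abundant in resting HSCs, fell from 3990–8620 to 1910–2800 CPM (−1.48 ± 0.33).

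Proteases changed in both directions, with 7 of 26 higher and 3 lower (4 higher with 72 h replicates 1 and 2 alone). Adamts5, an aggrecanase, stood at 61.3, 35 and 29.4 CPM and then at 327, 251, 425 and 422 CPM (3.09 ± 0.31, edgeR adjusted p = 3.14e-07). Mmp15, a membrane metalloproteinase, rose from 1.05–2.78 to 7.53–18.6 CPM (3.16 ± 0.36, and 3.75 without 24 h replicate 2) and the inhibitor gene Serpine2 from 2.55–6.86 to 12.3–62.7 CPM (2.93 ± 0.60). Plaur, the urokinase receptor, fell from 130–167 to 7.8–16.5 CPM (−3.69 ± 0.38), and the stromelysin Mmp3 from 68.5–100 to 6.1–12.3 CPM (−3.26 ± 0.57). Adamts4, the sister aggrecanase, fell from 959–1040 to 116–477 CPM (−2.09 ± 0.45, and −2.70 without 72 h replicate 1). Timp1, a metalloproteinase inhibitor, stood at 91–102 CPM and then at 1.68, 47.9, 21.2 and 29.3 CPM, without overlap and without a call (−1.93 ± 0.84, edgeR adjusted p = 0.104).

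The mean level of contractile and cytoskeletal genes stood above the healthy samples at both times. Against healthy samples, 19 of 38 were higher and 1 lower at 24 h, and 15 were higher and 1 lower at 72 h. From 24 h to 72 h, 5 of 38 were lower and 2 higher (8 lower without 72 h replicate 2, 2 and 9 with either pair of 72 h samples, and 1 higher without 24 h replicate 1 or 2). The list's mean log2 CPM was 7.41–7.52 at 24 h and 6.90–7.43 at 72 h, against 5.85–6.01 in healthy samples. Acta2, smooth muscle actin and the usual protein marker of activation (chromosome 19, 34241090–34255590), stood at 301, 253 and 150 CPM and then at 212, 621, 256 and 275 CPM. Its groups overlapped (0.54 ± 0.74, edgeR adjusted p = 0.666), and both lay far above healthy samples (3.13 ± 2.69 CPM). Pdlim7 fell from 247–518 to 81.1–135 CPM (−1.89 ± 0.25), Zyx, zyxin of focal adhesions, from 827–919 to 212–369 CPM (−1.56 ± 0.25), and the tubulin gene Tuba4a from 39–54 to 9.84–16.5 CPM (−1.83 ± 0.44). Synpo2 rose from 1.67–2.76 to 10.2–12 CPM (2.39 ± 0.31). Myh11, smooth muscle myosin, rose from 4.51–9.22 to 19.7–25.9 CPM (1.62 ± 0.52, edgeR adjusted p = 0.0249), a call lost without 24 h replicate 1 (1.71) or 2 (1.37). The 4 smooth muscle cell markers, of which Myh11 is one, summed to 18.2–35.3 CPM at 24 h and 35.9–45.1 CPM at 72 h.

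Integrin genes moved both ways, with 3 of 16 higher and 3 lower. Itga8, which pairs with beta 1, stood at 59.7, 36.9 and 43.9 CPM and then at 295, 216, 698 and 626 CPM (3.29 ± 0.49), and Itgb5 rose from 222–248 to 455–624 CPM (1.24 ± 0.21). Itga5, the fibronectin receptor chain, fell from 693, 149 and 517 CPM to 52.1, 117, 81.7 and 81.9 CPM (−2.45 ± 0.31). Itgb3 and Itgb8 fell by 2.0 ± 0.35 and 2.07 ± 0.26 on the log2 scale. Growth factors and receptors gave 7 higher and 7 lower of 47 (4 lower without 72 h replicate 4, and 3 higher and 2 lower with 72 h replicates 1 and 2 alone). Pdgfd, a ligand of the PDGF receptors, rose from 1.04–1.67 to 11.2–31.4 CPM (3.77 ± 0.39) and Igf1 from 17.4–32.9 to 110–229 CPM (2.76 ± 0.68). Inhba, the activin A subunit, fell from 280, 200 and 324 CPM to 41.3, 48.1, 29.2 and 27.6 CPM (−2.87 ± 0.32, edgeR adjusted p = 1.34e-06).

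Of 32 genes that mark quiescent HSCs, 3 were higher and 3 lower (7 lower with 72 h replicates 3 and 4 alone), with a median of 0.11 (−0.24 with that pair alone). The list's mean log2 CPM was 7.51–7.65 at 24 h and 7.43–7.73 at 72 h, against 8.50–8.83 in healthy samples. Gfap, the glial filament protein, stood at 9.79–13.5 and 11.3–22.2 CPM, and the neurotrophin receptor gene Ngfr at 24.9–87.8 and 42.8–106 CPM, both overlapping and not called. Lhx2, a factor that holds HSCs quiescent, rose from 133–163 to 239–451 CPM (1.30 ± 0.28), and the adhesion gene Ncam1 from 4.81, 3.21 and 2.46 CPM to 40.1, 21.8, 60.3 and 60.8 CPM (3.71 ± 0.46). Hhip, which binds hedgehog ligands (chromosome 8, 79965851–80058006), stood at 334, 309 and 322 CPM and then at 20.4, 21.3, 11.9 and 11.7 CPM. The fall of 4.30 ± 0.48 on the log2 scale (edgeR adjusted p = 1.37e-06) took it from above the healthy level of 126 ± 18.8 CPM (SD, n = 4) to below it. Bmp10 fell from 409–723 to 160–235 CPM (−1.53 ± 0.34) and Egfem1 from 67.8–71.3 to 16.1–25.5 CPM (−1.81 ± 0.26).

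Retinoid and lipid droplet genes gave 5 higher and 3 lower of 29, with a median of −0.03, or −0.36 with genes at 0 in a group set to their bound. The median was −0.20 to −0.30 without any one 24 h sample or without 72 h replicate 1 or 4. The lower count was 1 without 24 h replicate 1, 5 without 24 h replicate 3 and 6 without 72 h replicate 1 or with 72 h replicates 3 and 4 alone, and 3 were higher with replicates 1 and 2 alone. Dhrs3, which reduces retinal to retinol, stood at 19.8, 25.6 and 24 CPM and then at 151, 203, 118 and 137 CPM (2.72 ± 0.34, edgeR adjusted p = 3.58e-06). Rbp4, the carrier of retinol in blood, rose from 6.77–21.6 to 67.8–86.2 CPM (2.73 ± 0.71, and 3.48 without 24 h replicate 3), and Dgat2, which makes triglyceride, from 6.68–7.11 to 14.5–46.1 CPM (2.15 ± 0.46). Hepatocytes also express both, and their markers summed to 105–436 and 1600–3970 CPM, a part that was not tested. Plin2, the coat protein of lipid droplets, fell from 783, 816 and 483 CPM to 187, 166, 143 and 175 CPM (−2.05 ± 0.28).

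**Figure D4:**
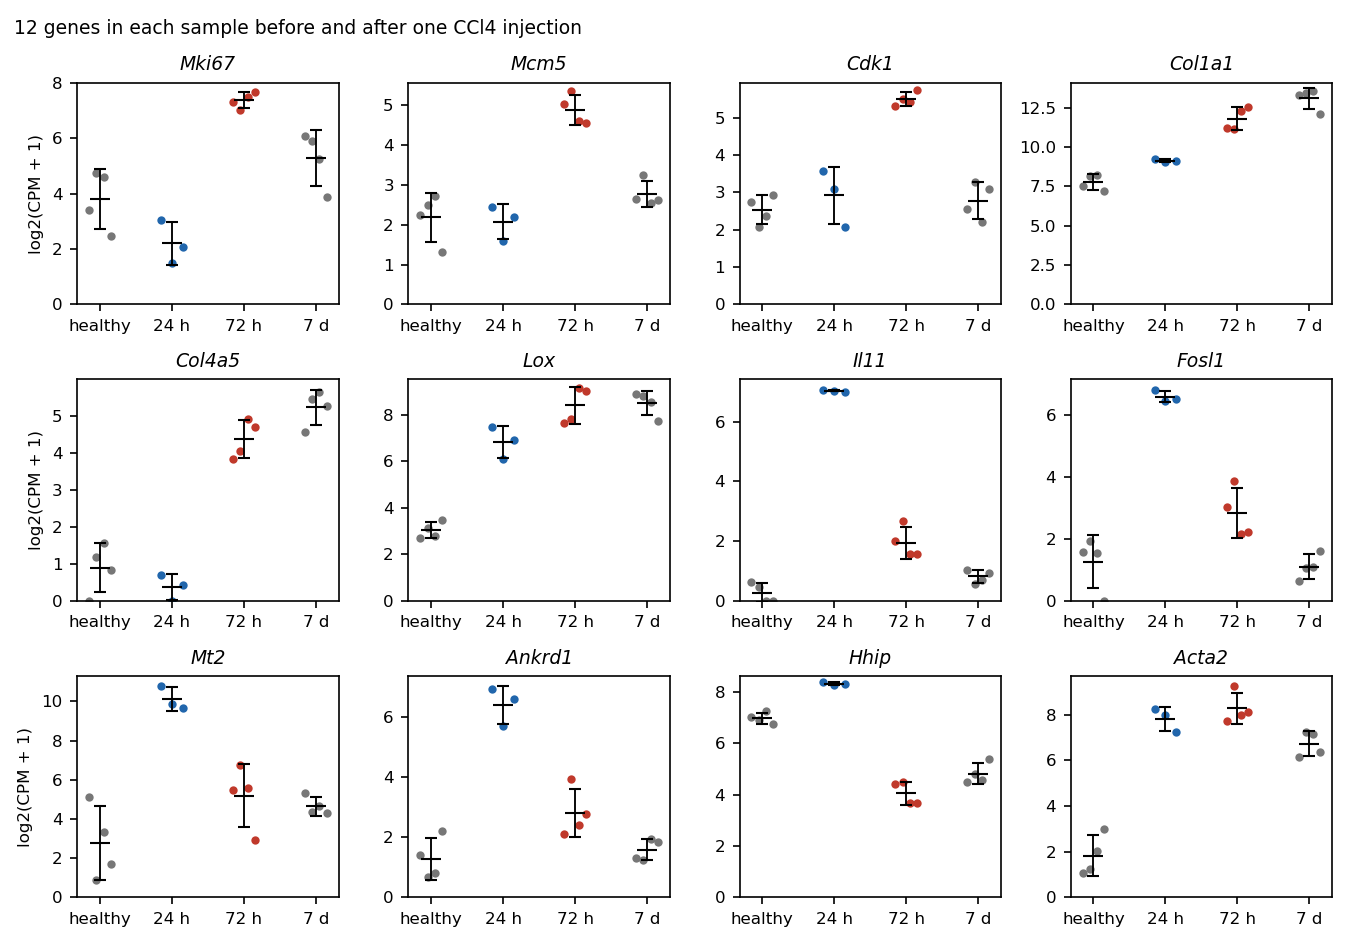
Level of 12 genes as log2(CPM + 1) in each healthy, acute 24 h, acute 72 h and acute 7 d sample, with points for samples and bars for the mean ± SD on that scale. Il11, Fosl1, Mt2 and Ankrd1 are high at 24 h and low at 72 h, Mki67, Mcm5, Cdk1, Col1a1 and Col4a5 the reverse, and the Acta2 samples of 24 h (150–301 CPM) and 72 h (212–621 CPM) overlap.

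Clock genes had 8 of 18 higher and 3 lower, but the count of higher genes was 3, and that of lower genes 1, with 72 h replicates 1 and 2 alone. The list's median log2 change of 1.22 was 0.71 without 72 h replicate 4. It was 0.31 with 72 h replicates 1 and 2 alone and 1.76 with replicates 3 and 4 alone. Dbp, a clock output factor (chromosome 7, 45705088–45710203), stood at 1.69, 1.13 and 0.176 CPM and then at 35.4, 10.6, 85.8 and 100 CPM (5.85 ± 1.01, and 6.45 without 24 h replicate 1). The core factor Arntl fell from 34.3–45.2 CPM to 16.9, 14.4, 2.76 and 2.48 CPM (−2.11 ± 0.61), and Nfil3, which opposes Dbp, from 205–221 to 39.7–84.9 CPM (−2.04 ± 0.39). For Dbp and Arntl, 72 h replicates 3 and 4 stood furthest from the 24 h samples. The hour of day at which the livers were taken is not given in the sources used here, so that hour and time after injury cannot be told apart.

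Some of the genes that changed most, taken among those whose mean log2 CPM was 3 or more, stood outside these lists. Bhmt, a methionine-cycle enzyme of hepatocytes, stood at 0.178, 0.608 and 0.702 CPM and then at 56.4, 63.6, 189 and 77 CPM (7.57 ± 1.14, edgeR adjusted p = 4.3e-05), with healthy samples at 123 ± 161 CPM (SD, n = 4). Gm5096 gave 7.86 ± 1.10, but shares 99.4% identity with Bhmt over 1869 aligned bases, so that their reads may be split between them. Car3, a carbonic anhydrase of hepatocytes and fat cells, gave 6.39 ± 1.03. Without 72 h replicate 3, the sample with the highest hepatocyte markers, the changes were 6.95 for Bhmt, 7.26 for Gm5096 and 5.41 for Car3. Gm43489, a transcript to be experimentally verified, rose to 77.5–166 CPM (7.16 ± 1.82), lies within Hgf on the same strand and shares 484 bases with it. Nrep, a neuronal regeneration protein, stood at 2.14, 0.694 and 0.615 CPM and then at 44.7, 29.4, 146 and 151 CPM (6.33 ± 0.78, and 7.12 without 24 h replicate 1). The pseudogene Gm11223 gave 5.65 ± 0.52 (6.25 without 24 h replicate 1) and matches the tubulin regulator Stmn1 at 97.6% identity over 460 bases, so that it may carry reads of that gene.

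Leading genes among those that fell include signalling genes without a list. Rasd1, a small GTPase induced by glucocorticoids, stood at 206, 164 and 136 CPM and then at 9.3, 12.2, 2.36 and 2.25 CPM (−4.69 ± 0.57, edgeR adjusted p = 3.49e-06). The bradykinin receptor gene Bdkrb2 fell from 64.5–86 to 2.17–8.4 CPM (−4.10 ± 0.62), the matrix protein gene Spon2 from 1210–1370 to 46.9–153 CPM (−3.86 ± 0.53) and the orphan receptor gene Gprc5b from 51.1–72.2 to 2.94–7.62 CPM (−3.73 ± 0.43).

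Against healthy samples, both time points can be set side by side, although they share the healthy samples and are not independent. At 24 h, 1765 genes were higher (9.41%) and 2353 lower (12.5%). At 72 h, 1543 were higher (8.23%) and 812 lower (4.33%). The median log2 change against healthy was −0.94 at 24 h and 3.50 at 72 h for mitosis, −0.75 and 0.65 for collagens, 1.25 and 0.76 for contractile genes, 1.06 and 0.15 for ribosome biogenesis, and −1.26 and −0.96 for quiescent HSC genes. For all genes tested it was −0.12 and 0.00. Hepatocyte markers had a median of −3.66 at 24 h, with 13 of 14 lower, and of −0.31 at 72 h, with none called.

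The study defined 2 gene programs, a fibrogenic program from CCl4-treated, healthy and recovered samples, and an initiatory program from genes up in the acute 24 h samples and also in cultured HSCs, which were not analysed here. Both drew on samples of this series, so that their members are no independent evidence of a direction. Of 172 fibrogenic genes tested, 25 were higher and 39 lower at 72 h than at 24 h (median −0.26), and the mean log2 CPM was 4.84–5.24 at 24 h, 4.58–4.89 at 72 h and 2.05–2.42 in healthy samples. Of 72 initiatory genes, 1 was higher (0–2 on leaving out each sample in turn) and 39 lower (median −1.26), with 5.90–6.18 at 24 h, 4.29–5.04 at 72 h and 2.42–2.69 in healthy samples.

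The same interval after repeated injury was used to show where the acute step differed. The chronic step shares no sample with the acute step, and the injuries also differ in the number of injections and in age. From chronic 24 h to 72 h, 886 genes went up (4.72%) and 684 went down (3.65%). Of the genes called higher in the acute step, 432 were also called higher in the chronic step, which is 20.5% of the acute and 48.8% of the chronic calls. Of those called lower, 120 were shared (17% and 17.5%). A test of the difference between the steps called 1212 genes more positive in the acute step (6.46%) and 427 more negative (2.28%). The first number was 589 with 72 h replicates 1 and 2 alone, and the second 698 with replicates 3 and 4 alone. The chronic samples differed in depth, with 6.52–7.58 M counts in replicates 1 and 2 of both groups and 12.2–13 M in replicates 3 and 4. With chronic replicates 3 and 4 alone, 777 were more positive.

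By list, the difference was positive for 41 of 80 mitosis genes and 36 of 63 replication genes, with none negative. The chronic step itself had 23 mitosis genes higher (median 1.20), and 2 replication genes higher and 8 lower. Mki67 stood at 6.62 ± 5.51 CPM at chronic 24 h and 11.1 ± 3.95 CPM at chronic 72 h (SD, n = 4 each), against the change from 4.12 ± 2.84 to 168 ± 32.5 CPM in the acute step (difference 4.56 ± 0.92 SE, edgeR adjusted p = 0.0022, and 5.26 without acute 24 h replicate 1). Tk1 differed by 4.97 ± 0.59 and Mcm5, lower in the chronic step at −1.0, by 4.12 ± 0.52. Ccnb2 rose in both steps, with no call on the difference.

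Contractile and collagen genes also differed between the injuries. Of 38 contractile genes, 28 fell in the chronic step (median −1.40), and 16 differences were positive and none negative. Acta2 stood at 1540 ± 1060 CPM at chronic 24 h and at 11.2 ± 14 CPM at chronic 72 h, a chronic change of −7.09 beside 0.54 in the acute step (difference 7.63 ± 1.16, edgeR adjusted p = 0.000178, and 9.06 without chronic 72 h replicate 4). The part of smooth muscle cells was not tested, but all 4 of their markers fell in the chronic step too, their sum going from 27.1–180 to 17–28.8 CPM, against 18.2–35.3 and 35.9–45.1 CPM in the acute step. Of 26 collagens, 14 differences were positive and 1 negative. Col1a1 held 5650 ± 1150 and 4230 ± 1010 CPM in the chronic groups, without a call, and its steps differed by 3.21 ± 0.52. Fbln2 fell from 205 ± 104 to 22.5 ± 3.12 CPM after chronic injury and rose after acute injury, a difference of 7.14 ± 0.77 (edgeR adjusted p = 3.92e-06). Lox changed by −3.00 in the chronic step, a difference of 4.64 ± 0.66. Cthrc1, a secreted collagen-associated protein, Ccn5, a matricellular protein, and Nrep differed by 7.07 ± 1.31, 6.85 ± 0.69 and 6.82 ± 0.91. For Cthrc1 this was 7.83 without acute 24 h replicate 1, 6.40 without acute 72 h replicate 3 and 7.74 without chronic 72 h replicate 4, and for Nrep 7.61 without acute 24 h replicate 1.

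**Figure D5:**
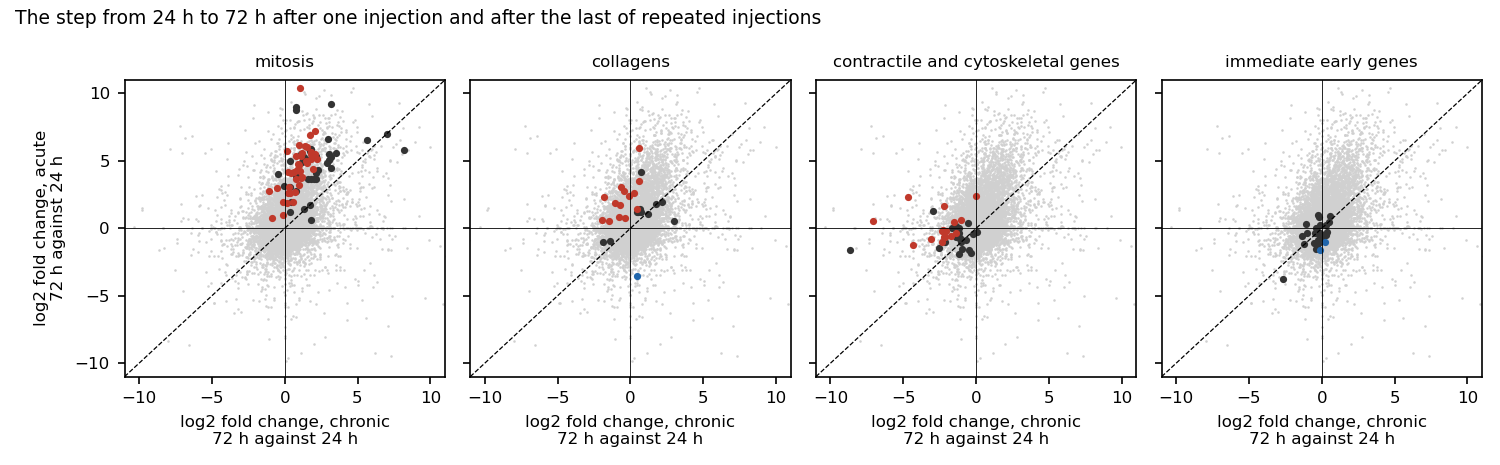
Log2 fold change from 24 h to 72 h after 1 injection (vertical) against that after repeated injections (horizontal), with all genes tested in grey and the members of 4 lists in colour, red where the difference of the steps was called positive, blue where negative and dark grey where not called. The dashed line marks equal change, 5 genes lie beyond the axes, and most mitosis and collagen members lie above the line, with 41 and 14 of them red.

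Negative differences were fewer. Hhip had a chronic change of 0.34, without a call, and a difference of −4.64 ± 0.64 (edgeR adjusted p = 5.49e-05, and −5.26 without chronic 24 h replicate 1). Rasd1 differed by −4.62 ± 0.74, with a chronic change of −0.07. Inmt, a methyltransferase, fell from 77.3–106 to 18–26.3 CPM in the acute step and rose by 2.41 in the chronic step, a difference of −4.57 ± 0.47 (edgeR adjusted p = 2.82e-06). Tmem100 and Syt12 differed by −4.08 ± 0.70 and −4.04 ± 0.55 (−5.22 for Tmem100 without chronic 24 h replicate 1). Among 32 quiescent HSC genes, 9 differences were negative and 2 positive. Gfap rose by 1.89 in the chronic step beside 0.40 in the acute step, a difference of −1.50 ± 0.34. Among 30 immediate early genes, 2 differences were negative. Il11, Fosl1, Plaur, Mmp3 and Tnfrsf12a fell in both steps, by 4.01, 2.63, 2.72, 4.11 and 3.07 on the log2 scale in the chronic step, without a call on the difference.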

How the data were processed

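HSCs of 27 samples in 7 groups were sequenced single-end. The authors mapped the reads to GRCm38 and assembled genes, with STAR and StringTie named in the submitters' processing notes, and deposited raw read counts per gene, not normalized. The program that counted, and whether it used strand, is not given in the sources used here, so that reads of a gene and of one on the opposite strand cannot be told apart for 51 of the 130 named genes, and 18 have another gene on the same strand over them. The table held 53379 genes, of which 16198 had no count, and no column was unmatched. From these counts, edgeR 4.0.16 (R 4.3.3, limma 3.58.1) kept 18758 genes with filterByExpr, scaled them with TMM and fitted robust quasi-likelihood models to all groups (20 residual degrees of freedom). Genes were called at an adjusted p under 0.05 and a change over 2-fold. Log2 CPM used a prior count of 2, and SE is |log2 change|/√F. A gene at 0 throughout a group was bounded by 3 counts per sample, for counting error only. DESeq2 1.42.0 and other settings were tried as alternatives.

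Samples were grouped by label. Genes were named by rule: 28 chosen genes of injury and HSC biology, the 10 largest changes per direction among called genes without overlap between groups, up to 3 called genes per list and direction, the 5 largest differences of steps per direction, and defining markers. The rules on largest changes and differences took genes whose mean log2 CPM was 3 or more. Some genes that meet the rule are not reported here. Gene lists, members and the rule were chosen with earlier results of these data known. Promoter windows came from RefSeq, and similar sequences were found with BLASTN 2.17.0.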

Additional observations from a re-analysis of the deposited data

Results flagged for a closer look

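In groups of 4, a sample far from the others is found in about 1 of 20 groups by chance, and 11 of 174 groups of 4 tested had one. Among the acute 72 h samples, replicate 2 stood apart with 621 CPM for Acta2, 84.9 CPM for Nfil3 and 7.62 CPM for Gprc5b, each above the others, and with 10.2 CPM for Synpo2, below them. Replicate 3 stood above the others with 149 CPM for Gm5096, 189 CPM for Bhmt, 841 CPM for Alb and 148 CPM for Ttr, and with 3970 CPM for the summed hepatocyte markers. Replicate 1 stood above the others with summed HSC markers of 20800 CPM and summed T and NK cell markers of 8.33 CPM.

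The change from 24 h to 72 h differed between acute and chronic injury by edgeR's test of the difference itself, which called 1212 genes more positive and 427 more negative after acute injury. Of 66 named genes with such a call, 49 kept it without each acute or chronic sample in turn, 32 of them more positive and 17 more negative. As log2 differences, acute minus chronic, the cell cycle genes gave 4.56 for Mki67, 5.18 for Top2a, 2.42 for Cdk1, 4.12 for Mcm5, 4.54 for Pclaf, 3.84 for Ckap2l, 4.97 for Tk1, 5.85 for Brca1 and 1.55 for Cdkn2c. Without acute 24 h replicate 1 these became 5.26 for Mki67, 5.24 for Pclaf, 4.90 for Ckap2l and 7.47 for Brca1, and Brca1 gave 5.10 without chronic 24 h replicate 2.

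Matrix genes gave 3.21 for Col1a1, 2.35 for Col3a1, 5.33 for Col4a5, 2.90 for Col8a2, −3.98 for Col13a1, 4.64 for Lox, 5.96 for P4ha3, 5.17 for Ltbp2, 7.14 for Fbln2, 2.0 for Adamts5, 2.30 for Mmp15, 7.07 for Cthrc1 and 6.85 for Ccn5. Without acute 24 h replicate 1 the values were 6.17 for Col4a5, 7.31 for P4ha3, 5.77 for Ltbp2 and 7.83 for Cthrc1, which also gave 6.40 without acute 72 h replicate 3 and 7.74 without chronic 72 h replicate 4. Contractile and adhesion genes gave 7.63 for Acta2 (9.06 without chronic 72 h replicate 4), 3.84 for Myh11, 2.42 for Synpo2, −1.53 for Itgb8 and 4.14 for Ncam1.

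Signalling and stress genes gave −3.13 for Ccl11, 3.85 for Tnf (3.15 without chronic 24 h replicate 2), −1.83 for Nt5e, 1.81 for Amotl2, −3.24 for Mt1, −2.39 for Ddit4, −1.30 for Ppan, −1.79 for Usp18, −4.62 for Rasd1 and −2.33 for Gprc5b. Metabolic genes gave 3.14 for Hk2, 1.74 for Dhcr7, 2.33 for Dhrs3, −1.55 for Plin2 and −4.57 for Inmt. HSC genes gave −1.50 for Gfap, −4.64 for Hhip and −2.79 for Egfem1. The remaining genes gave 6.82 for Nrep, 3.96 for Gm11223, −4.08 for Tmem100 and −4.04 for Syt12. Hhip and Tmem100 gave −5.26 and −5.22 without chronic 24 h replicate 1, and Nrep and Gm11223 gave 7.61 and 4.56 without acute 24 h replicate 1.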

How the results depend on the processing

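The direction of the counts, more genes higher than lower in the acute step and more positive than negative differences, held under every alternative. Where a count moved by over 1.5 times the cause was not tested, except that a test against a 2-fold minimum is stricter and no fold minimum looser by construction. Against 2110 genes higher, 705 lower, 1212 more positive and 427 more negative, the test against a 2-fold minimum gave 971, 138, 316 and 50. Without a fold minimum 1589 were lower, and without a filter on low counts 791 were more positive. With acute 72 h replicates 3 and 4 only, 1208 were lower and 698 more negative. With replicates 1 and 2 only, 1221 were higher, 426 lower and 589 more positive. With chronic replicates 3 and 4 only, 777 were more positive. These subsets were chosen after seeing the data. Leaving out each sample gave 1703–2208 higher, 583–832 lower, 836–1289 more positive and 286–589 more negative. DESeq2 called 2344 and 778 genes, 2763 genes being called by both tools, and gave no adjusted p for 397 genes. Library size alone gave 2390 and 527, with the median of all genes shifted by 0.11 on the log2 scale. Of the values for single named genes under alternatives, 4360 kept their side of the threshold, 268 lost and 16 gained a call. These values cover the acute step and the difference of the steps together. No called gene reversed direction, and direction was not scored for genes without a call. Of 113 named genes called in the acute step, 105 kept the call without each sample in turn. List medians were compared with the SD between replicates of the list's mean log2 CPM. Under the alternatives 438 list medians moved by less than this SD and 56 did not.

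Replicate numbers served only as labels. Across all genes, same-numbered 24 h and 72 h samples deviated from their group means with correlations of −0.04, 0.05 and 0.04. Such correlations cannot exclude a batch that touches only part of the genes. A replicate block gave 1028 higher and 466 lower in the fit of only the groups compared, and 2037 and 701 in the fit of all samples. For the difference of steps the block gave 1184 and 421 in the fit of only the groups compared. Depth limits genes of few counts, and in such genes a missing call does not show equal levels.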
